A study of Mus musculus with 3 samples.

Results

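Alpha and beta tubulin are encoded by a family of closely related genes, and 10 of them are described here across the cell types of the mouse cochlea at postnatal day 14 (P14) and day 28 (P28). The set was Tuba1a, Tuba1b, Tuba1c and Tuba4a for alpha tubulin and Tubb2a, Tubb2b, Tubb4a, Tubb4b, Tubb5 and Tubb6 for beta tubulin, 10 of the 32285 genes in the count matrices. They were chosen by name as the alpha and beta tubulins other than the neuronal isotype Tubb3, and their counts were taken from cell barcodes with 200 to 6000 detected genes and at most 15% mitochondrial counts. The working name of the set called them nonneuronal, and for some of them the counts went against that name. At P28 Tuba4a and Tubb4a were highest in the spiral ganglion neurons among 15 cell classes, and Tuba1b in those neurons and in 2 other classes whose ranges overlapped with theirs. Tuba1c, Tubb2b and Tubb6 were lower in those neurons than in the other P28 cells.

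The series holds 3 single-cell libraries from dissected cochlear tissue of C57/B6 mice, 1 taken at P14 and 2 at P28, each pooled from 14 cochleae of 7 mice. By the study's methods part of the basal turn was lost in dissection, so that the epithelial cells came mostly from the middle and apical turns. No agent, genotype or sort separated the groups, which differed by age only, and the cells were counted with a 3′ kit that tags each captured RNA molecule with a unique molecular identifier (UMI). The library totals were 10125255 UMIs at P14, 35485894 in P28 replicate 1 and 37530956 in P28 replicate 2, and 1662, 5651 and 7065 barcodes passed the limits, 14378 in all, with median depths of 2477, 2421 and 2037 UMIs per barcode. The libraries shared 4, 7 and 10 of the kept barcode sequences pairwise. P14 has a single library, so differences between the ages were not tested, and age, library and pool of animals cannot be told apart. The p-values below come from library sums of pooled animals. With all 3 libraries they set a class difference against its spread over the libraries, in which age and pool of animals are mixed. With the 2 P28 libraries alone no library term was used, and the spread is that between the library sums of a class.

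Microtubules are hollow polymers of alpha and beta tubulin dimers. Mammals carry several genes for each subunit, and the proteins they encode, called isotypes, differ mostly in the acidic tail that receives modifications and binds motors and microtubule-associated proteins. In the cochlea, pillar cells and Deiters' cells are the supporting cells known for thick bundles of parallel microtubules that stiffen the organ of Corti, hair cells carry a kinocilium for part of development, and the neurons of the spiral ganglion depend on axonal microtubules for transport.

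Part of the set lies in short runs of the genome. In GRCm38, the build the UMIs were counted on, Tuba1a (chr15:98949837-98953703, minus strand), Tuba1b (chr15:98931425-98934565, minus) and Tuba1c (chr15:99029891-99038110, plus) are neighbours on chromosome 15, and Tubb2a (chr13:34074274-34078007, minus) and Tubb2b (chr13:34126748-34130466, minus) on chromosome 13. Tubb4b (chr2:25222160-25224702, minus), Tuba4a (chr1:75214228-75219865, minus), Tubb5 (chr17:35833921-35838306, minus) and Tubb4a (chr17:57080066-57087782, minus) stand apart from other members of the set. Near-identical copies limit how the counts can be split. Of the 50-base words in the last 400 bases of the transcripts, where a 3′ kit reads, 43.9% for Tuba1a, 53.3% for Tuba1b and 59.3% for Tuba1c also occur in each other's transcripts or in pseudogenes. The share was 31.9% for Tubb2a, with Tubb2b among the genes that share words, and 29.3% for Tubb4b, shared with pseudogenes only. It was 0% for Tubb2b, Tuba4a, Tubb4a, Tubb5 and Tubb6.

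The 150 bases before the RefSeq start (GRCm38.p6) are printed for 3 beta tubulin genes, since the Tubb4b and Tubb2a levels described below were higher at P14 than at P28 in the same supporting cells and the Tubb5 level was not. Each is written 5′ to 3′ on the gene's strand, and capitals mark the motifs searched on both strands, which were CCAAT with its complement read as ATTGG, the motif TATAAA with its complement read as TTTATA, and the motif GGGCGG with its complement read as CCGCCC.
Tubb4b, chr2:25224703-25224852, minus: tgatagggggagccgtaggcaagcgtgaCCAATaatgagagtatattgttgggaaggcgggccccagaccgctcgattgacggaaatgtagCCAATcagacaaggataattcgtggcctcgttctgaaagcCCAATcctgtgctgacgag
Tubb2a, chr13:34078009-34078158, minus: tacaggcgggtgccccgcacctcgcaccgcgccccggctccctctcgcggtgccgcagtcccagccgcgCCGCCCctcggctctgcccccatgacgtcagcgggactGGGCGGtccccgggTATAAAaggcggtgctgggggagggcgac
Tubb5, chr17:35838302-35838451, minus: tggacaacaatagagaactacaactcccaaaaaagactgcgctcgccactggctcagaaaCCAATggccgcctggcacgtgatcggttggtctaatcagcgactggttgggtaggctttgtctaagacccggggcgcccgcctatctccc
The Tubb4b window held CCAAT 3 times, the Tubb2a window held TATAAA once and GGGCGG 2 times on either strand, and the Tubb5 window held CCAAT once. Over the full 250 bases upstream, Tubb4b had 5 matches to CCAAT, Tubb5 had 2 and Tubb2a had 0. Among 32851 RefSeq promoters of that length 33.8% held CCAAT at least once and 2.79% at least 3 times, 12.4% held TATAAA and 32.7% held GGGCGG. A match is a run of letters and was not tested as a binding site.

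The barcodes were clustered again without the tubulin and microtubule genes, separately at each age, and clusters were named from marker genes with "-like" added. P14 fell into 18 clusters and P28 into 32. Of these 4, with 1237 barcodes, stayed unnamed. The class of Deiters' and pillar cells (DC/PC-like) held 74 P14 barcodes and 72 and 41 from the P28 libraries, 1 cluster at each age, led in both by Tectb and Fabp3. All 8 DC/PC markers were above 0 at P14, and 7 at each P28 library, where Npy was at 0. In both P28 libraries all 8 were above 0 in outer hair cells, spiral ganglion neurons, and inner phalangeal and border cells. The summed level of these markers in DC/PC-like cells, 16156 to 23936 UMIs per 1000000 UMIs of the class (CPM), was mostly S100a1. It was higher in the inner sulcus, Hensen's and outer sulcus class (ISC/HeC/OSC-like, 26562 to 38841). So neither the count nor the sum singles out DC/PC-like cells. Ceacam16 was at 1922, 4164 and 5899, Fgfr3 at 253, 498 and 490 and Prox1 at 46.4, 63.9 and 47.0 CPM in their 3 libraries. Markers of outer hair cells summed to 598 to 1108 CPM in DC/PC-like cells. Haemoglobin and other red cell markers summed to 21392 in the DC/PC-like cells of P28 replicate 2, against 265 in P28 replicate 1 and 2086 at P14. The part of either in the results was not tested.

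Levels in CPM are given with exact 95% Poisson intervals that cover counting error only. Each UMI stands for 1 molecule whatever the transcript's length, so levels of different genes were compared without a length correction. DC/PC-like cells held the most tubulin RNA of the set in the organ of Corti, 4634 CPM at P14 (95% interval 4433 to 4842), against 2510 and 1982 CPM at P28. In spiral ganglion neurons (SGN-like, 334 and 296 barcodes, P28 only) the 10 genes summed to 2768 and 2557 CPM. Outer hair cells (OHC-like) reached 407 CPM in the P14 library and 731 and 665 in the others, and inner hair cells (IHC-like) 1050, 993 and 933 CPM. A class total cannot tell more RNA per cell from a larger share of the cell's RNA.

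Each isotype had its own order over the 15 classes present in both P28 libraries. Tuba1a peaked in DC/PC-like cells, at 1169 and 759 CPM, above both values of the next class, the Schwann and satellite glial cells (SC/SGC-like, 657 and 471 CPM), which overlapped with SGN-like cells at 508 and 455 CPM. Tuba1b was the most evenly spread, from 830 CPM on average in SGN-like cells, 734 in B cell-like and 732 in DC/PC-like cells, which did not differ beyond their spread, down to 162 in OHC-like and 111 in red blood cell-like (RBC-like) cells. Tuba1c was low in the organ of Corti and reached 174 and 74.6 CPM in B cell-like cells. That class was not clean at P28, with red cell markers at 148932 and 59346 CPM against 9891 and 7253 CPM of B cell markers. Proliferation genes were at 5880 and 5015 CPM in it. The part of either in the tubulin levels of B cell-like cells was not tested. Tuba4a stood at 357 and 361 CPM in SGN-like cells, clear of B cell-like cells at 130 and 97.0 CPM, and then came DC/PC-like and IHC-like cells at 76.5 and 72.6 CPM on average, whose ranges overlapped.

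Among the beta tubulins, Tubb2a was highest in DC/PC-like (121 and 121 CPM) and SGN-like cells (121 and 113 CPM), whose ranges overlapped. Tubb2b peaked in DC/PC-like cells, at 105 and 87.3 CPM, against 32.6 and 33.6 CPM in the next class, ISC/HeC/OSC-like cells. Tubb4a was at 264 and 263 CPM in SGN-like cells and at 24.3 CPM on average in the next class, fibroblast-like cells. A Tubb4a UMI was found in 64.1% and 76.0% of SGN-like barcodes (median depths 9116 and 12657 UMIs) and in 1.08% and 1.05% of OHC-like barcodes (median depths 5261 and 3754), taken as the background of free RNA. With each barcode thinned to 1000 UMIs, which 306 of 334 and 294 of 296 SGN-like and 367 of 369 and 285 of 285 OHC-like barcodes reached, the shares were 26.8% and 20.7% in SGN-like and 0% in OHC-like barcodes. Tubb4b, the isotype best known from cilia, was highest at P28 in the spindle and root cell class (SpC/RC-like, 445 and 330 CPM), whose cluster was led by Ceacam16 and Tcap, and overlapped there with B cell-like cells at 413 and 284 CPM. Tubb5, a widely expressed isotype, was highest in B cell-like cells at 870 and 1045 CPM, a class that also held the red cell and proliferation RNA given above. Tubb6 was the lowest member, with 15.9 and 8.60 CPM in macrophage-like cells as its highest P28 level.

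**Figure D1:**
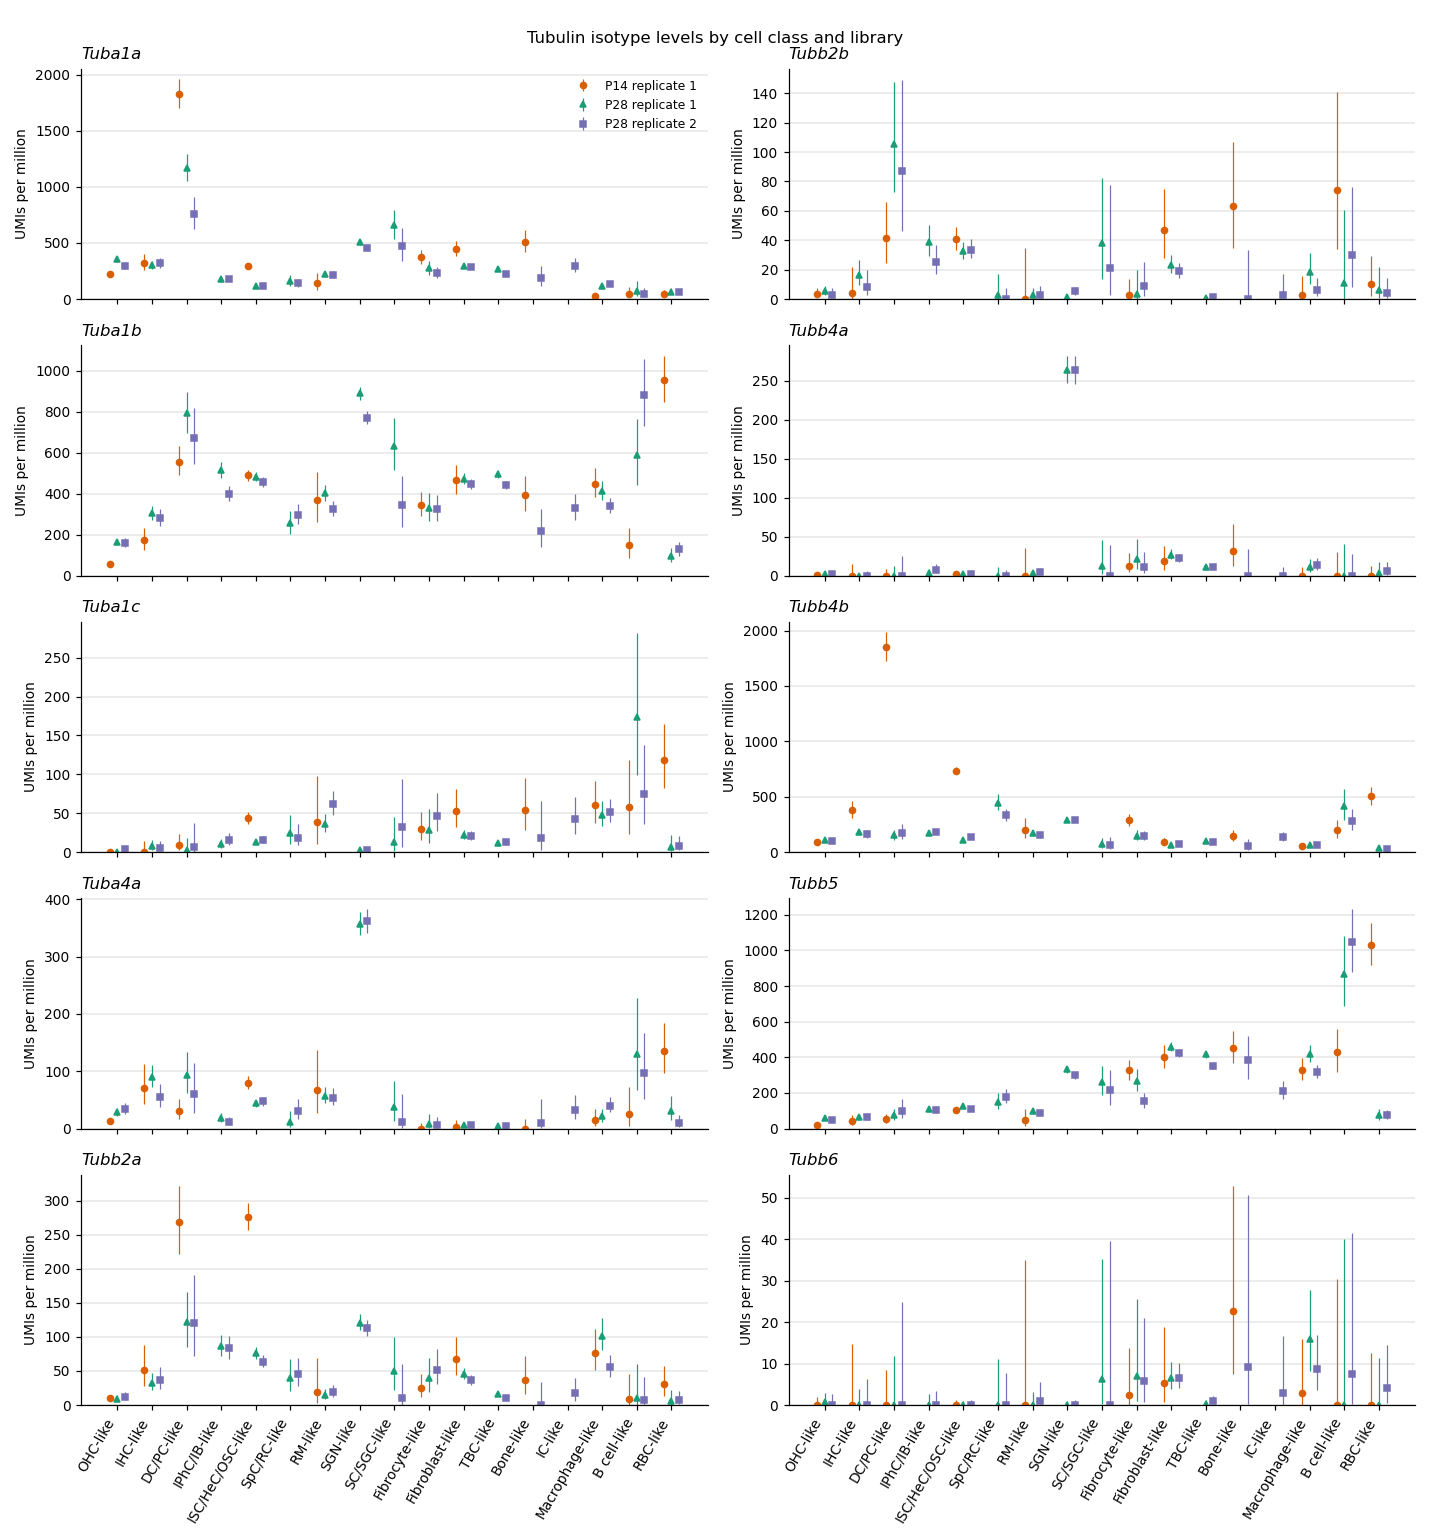
Level of each isotype (y axis, CPM, linear) in each cell class (x axis) and library, with exact 95% Poisson intervals and classes under 10 barcodes left out. Tuba1a and Tubb2b at P28 were highest in DC/PC-like cells, Tuba4a and Tubb4a in SGN-like cells, and Tubb4b at P14 stood at 1850 in DC/PC-like cells.

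Which isotypes the microtubule-rich supporting cells hold more of than the other cells of the same libraries was tested on sums per class and library with edgeR's quasi-likelihood test and Benjamini-Hochberg adjustment over 12825 genes. Of all genes tested, 7.12% were higher and 12.3% lower in DC/PC-like cells. Among the 9 members tested 5 were higher and 3 lower. Tuba1a was at 1824, 1169 and 759 CPM in the DC/PC-like sums of the P14 and the P28 libraries and 2.24 ± 0.21 (SE) higher on the log2 scale than in all other cells (adjusted p = 1.08e-05). Tubb2b was 2.17 ± 0.49 higher (adjusted p = 0.00693), Tubb2a 1.31 ± 0.23 (adjusted p = 0.00135), Tubb4b 1.07 ± 0.34 (adjusted p = 0.0391) and Tuba1b 0.76 ± 0.19 (adjusted p = 0.0101). Tubb5 was 1.54 ± 0.24 lower on that scale (log2 fold change -1.54, adjusted p = 0.000556) and Tuba1c 1.80 ± 0.56 lower (log2 fold change -1.80, adjusted p = 0.0381). Tubb4a had 0 UMIs in DC/PC-like cells of every library, at least 8.41-fold lower than in all other cells with a floor of 3 UMIs over the class. At P28 most of the level of those other cells was that of SGN-like cells, at 264 and 263 CPM. All cells but SGN-like were at 8.26 and 8.92 CPM. IHC-like cells also had 0 UMIs at P28, and OHC-like and ISC/HeC/OSC-like cells were at 1.87 and 1.63 CPM on average. Tuba4a, with a log2 fold change of -0.03 ± 0.31, did not pass the test. At P28 it was at 92.6 and 60.5 CPM in DC/PC-like cells and at 73.3 and 70.6 CPM in all other cells. Those others included SGN-like cells at 357 and 361 CPM, and all cells but SGN-like were at 27.7 and 23.5 CPM. The P14 values were 30.1 against 46.3 CPM. A difference from the other cells without SGN-like cells was not tested. Across all 3 libraries each called member lay on the same side.

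The Tubb4b value rested on the P14 library. There it was at 1850 CPM in DC/PC-like and 388 CPM in all other cells, while the P28 libraries had 153 against 139 and 175 against 136 CPM. Without P14 its log2 fold change was 0.30 (adjusted p = 0.364), and without P28 replicate 2 it was 1.34 (adjusted p = 0.105). Tuba1a, Tubb2a, Tubb4a and Tubb5 passed the test without each library in turn. Tuba1b did not without P28 replicate 1 (0.70, adjusted p = 0.150) or without P28 replicate 2 (0.78, adjusted p = 0.0847), nor Tubb2b without P28 replicate 2 (1.79, adjusted p = 0.125). Tuba1c passed in no pair of libraries, with adjusted p = 0.196 without P14, 0.159 without P28 replicate 1 and 0.111 without P28 replicate 2. The Tubb2b difference rested on the P28 libraries, with 105 against 13.4 and 87.3 against 10.8 CPM, and was 3.07 without P14. At P14 DC/PC-like cells were at 41.7 CPM (18 UMIs, interval 24.7 to 65.9), and the 33.7 CPM of all other cells lay inside that interval. They ranked 4 of 11 classes there, behind B cell-like (74.0 CPM), bone-like (63.6 CPM) and fibroblast-like cells (47.2 CPM), with intervals of neighbours in that order overlapping. By cluster, the ISC/HeC/OSC-like cells led by Epyc and BC006965 were at 93.0 CPM at P14, and the other clusters of that class at 23.2 and 16.8 CPM. With barcodes thinned to 1000 UMIs, and with no library block, 3 members passed, and Tubb4a no longer passed with limits of 3000 genes and 15000 UMIs per barcode (adjusted p = 0.0648). Tuba1a and Tubb5 passed under every setting run.

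The inner phalangeal and border cells (IPhC/IB-like, 288 and 342 barcodes at P28) are the supporting cells around the inner hair cell, and this comparison shares its DC/PC-like sums with the others of that class. Of 8303 genes 6.86% were higher and 6.43% lower in DC/PC-like cells. Of 7 members tested 4 were higher in DC/PC-like cells. Tuba1a was at 1169 and 759 CPM against 175 and 181 CPM, and these values did not overlap (log2 fold change 2.57 ± 0.21, adjusted p = 1.18e-07). Tuba4a was at 92.6 and 60.5 against 18.4 and 11.7 CPM (2.51 ± 0.37, adjusted p = 0.000113). Tubb2b (1.71 ± 0.31, adjusted p = 0.000929) and Tuba1b (0.81 ± 0.19, adjusted p = 0.00896) were also higher. Tubb4b was at 153 and 175 CPM in DC/PC-like and 168 and 185 CPM in IPhC/IB-like cells, a log2 fold change of -0.01 ± 0.20 (adjusted p = 0.981). Tubb2a (0.63 ± 0.23, adjusted p = 0.0876) and Tubb5 (-0.25 ± 0.26, adjusted p = 0.611) did not pass.

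Against the outer hair cells they hold, DC/PC-like cells had higher values of the 7 members tested, with calls for Tuba4a, Tubb4b and Tubb5 that depended on the setting. Of 9040 genes, 19.0% were higher and 18.4% lower in DC/PC-like cells, and of 7 members tested 7 were higher. Tubb2b was 4.29 ± 0.43 higher on the log2 scale (adjusted p = 0.000106), from 41.7, 105 and 87.3 CPM against 3.73, 5.15 and 2.87 CPM. Tubb2a was 4.08 ± 0.33 higher (adjusted p = 4.45e-05) and Tuba1b 2.66 ± 0.28 (adjusted p = 0.000130). Tuba1a (2.14 ± 0.30, adjusted p = 0.000727), Tuba4a (1.42 ± 0.32, adjusted p = 0.00804) and Tubb5 (1.02 ± 0.31, adjusted p = 0.0299) followed. Tubb4b, at 1850, 153 and 175 against 87.4, 105 and 103 CPM, lay on the threshold with 2.02 ± 0.70 (adjusted p = 0.05, just under it), and without P14 its difference was 0.74 (adjusted p = 0.00501). Tuba4a no longer passed without P28 replicate 1 (1.13, adjusted p = 0.138), nor Tubb5 without P14 (0.68, adjusted p = 0.0725) or without P28 replicate 2 (0.98, adjusted p = 0.112). Tuba4a and Tubb5 also lost their calls without the library block, and Tubb5 with DESeq2 and with 10 UMIs required in every sum (adjusted p up to 0.184). Tubb4b lost its call under 4 settings, namely a mitochondrial limit of 30%, all genes allowed as variable genes, nucleus-like clusters left out and 10 UMIs in every sum (adjusted p up to 0.158).

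The 2 sensory cell types were compared in all 3 libraries, with 277, 369 and 285 OHC-like and 60, 113 and 76 IHC-like barcodes. Of 9495 genes 16.8% passed as higher in OHC-like and 17.1% as higher in IHC-like cells, and of 6 members tested 4 were lower in OHC-like cells. Tuba1b stood at 54.4, 164 and 160 CPM against 174, 304 and 281 CPM in IHC-like cells, lower in each library (log2 fold change -0.92 ± 0.19, adjusted p = 0.00431). Tubb2a (-1.75 ± 0.29, adjusted p = 0.00131), Tuba4a (-1.37 ± 0.29, adjusted p = 0.00561) and Tubb4b (-1.02 ± 0.26, adjusted p = 0.0133) were lower too. Tubb4b was at 87.4, 105 and 103 against 380, 181 and 161 CPM, and its difference was -0.62 without P14. Tuba1a did not pass (0.02 ± 0.18, adjusted p = 0.936), nor did Tubb5 (-0.21 ± 0.24, adjusted p = 0.553). Without P28 replicate 1 Tuba4a no longer passed (-1.31, adjusted p = 0.0616). P14 IHC-like barcodes were shallow, with a median of 1026 UMIs against 9310 and 8008 at P28. Markers of IPhC/IB cells summed to 1478, 3632 and 3318 CPM in IHC-like cells and to 402, 628 and 575 CPM in OHC-like cells. In IPhC/IB-like cells at P28 they summed to 5954 and 5687 CPM. The part of such RNA in the differences between the hair cells was not tested.

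At P28 the spiral ganglion neurons were compared with all other cells of their 2 libraries. Here calls were common, with 34.9% of 15195 genes higher and 41.6% lower in SGN-like cells, so the members' count of 7 higher and 3 lower of 10 tested says little by itself, and the sizes carry the description. Tubb4a was at 264 and 263 CPM, 4.88 ± 0.12 higher on the log2 scale than in other cells (adjusted p = 3.52e-08). Tuba4a was 3.75 ± 0.12 higher (adjusted p = 1.02e-07), Tubb2a 1.59 ± 0.13 (adjusted p = 1.32e-05), Tubb4b 1.30 ± 0.10 (adjusted p = 7.44e-06), Tuba1a 1.05 ± 0.11 (adjusted p = 5.20e-05) and Tuba1b 1.01 ± 0.11 (adjusted p = 6.83e-05). Tubb5 was 0.37 ± 0.10 higher (adjusted p = 0.0106). Tuba1c (log2 fold change -2.90 ± 0.30, adjusted p = 5.15e-05) and Tubb2b (-2.18 ± 0.42, adjusted p = 0.00172) were lower, and Tubb6 had 0 UMIs in SGN-like cells, at least 4.09-fold lower than in the others. With limits of 3000 genes and 15000 UMIs per barcode Tuba1c (-0.80, adjusted p = 0.217), Tubb6 (adjusted p = 0.213), Tubb2b and Tubb5 no longer passed. Tubb2b also lost its call with barcodes thinned to 1000 UMIs (adjusted p up to 0.129 over the settings), and its log2 fold change was -1.08 without P28 replicate 1 and -2.85 without P28 replicate 2, where 1 library allows no test. Tubb5 lost its call thinned and with 10 UMIs in every sum as well, with log2 fold changes down to 0.12 and adjusted p up to 0.430. Tubb3, the isotype left out of the set, was at 795 and 722 CPM in SGN-like cells, beside 890 and 770 CPM of Tuba1b, and was 7.60 ± 0.14 higher than in other cells (adjusted p = 2.14e-08).

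**Figure D2:**
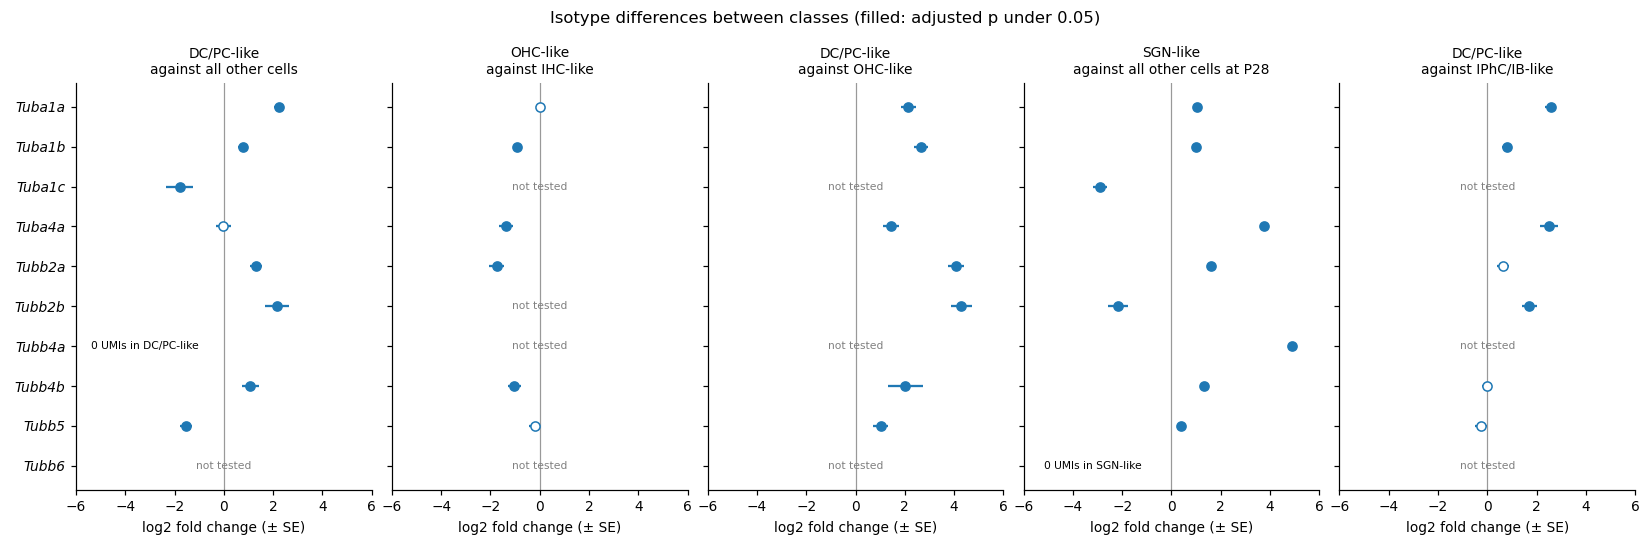
Difference of each isotype (rows) between 2 classes in the 5 comparisons (panels), as log2 fold change with its standard error (x axis). Filled points had an adjusted p under 0.05 with edgeR, open points did not, and text marks genes not tested or with 0 UMIs in a class. All 7 points of DC/PC-like against OHC-like lie above 0, while Tubb4b at -0.01 is open in DC/PC-like against IPhC/IB-like.

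The make-up of the tubulin RNA of the set differed by class as well as its amount. Shares are of the UMIs of the set's own alpha or beta members, so Tuba8 and Tubb3 are not counted in them. In DC/PC-like cells Tuba1a gave 75.4%, 56.8% and 50.7% of the alpha tubulin UMIs of the 3 libraries, and in OHC-like cells 76.7%, 64.9% and 60.1%. Tuba8, outside the set, was at 181, 184 and 172 CPM in OHC-like cells, beside 288, 549 and 495 CPM for the alpha members together. In DC/PC-like cells Tuba8 was at 2.32, 3.19 and 6.72 CPM. In IPhC/IB-like cells Tuba1b led, with 71.6% and 65.7%, and in ISC/HeC/OSC-like cells at P28 with 73.9% and 72.2%. In SGN-like cells Tuba4a gave 20.3% and 22.7% of alpha tubulin UMIs, against 1.25 to 12.8% in the other classes drawn. Their beta tubulin within the set was spread over Tubb5 (32.8% and 30.8%), Tubb4b (28.9% and 29.7%), Tubb4a (26.1% and 27.2%) and Tubb2a (11.97% and 11.7%). Tubb3, outside the set, was above each of these in SGN-like cells. It was at 795 and 722 CPM, beside 1011 and 967 CPM for the beta members together. In the hair cells Tubb4b was the main beta isotype at every age, with 73.5%, 57.7% and 60.3% in OHC-like and 79.3%, 61.8% and 59.6% in IHC-like cells. DC/PC-like cells at P28 had no such lead: Tubb4b gave 33.8% and 36.1%, Tubb2a 26.8% and 25%, Tubb2b 23.2% and 18.1%, and Tubb5 16.2% and 20.8%. The exact 95% binomial interval of the Tubb4b share ran from 26.1 to 42.2% and from 25.1 to 48.3%. At P14 Tubb4b alone made up 83.6% of their beta tubulin UMIs (interval 81.1 to 85.9%), and the ratio of alpha to beta UMIs was 1.09, against 4.54 and 3.097 at P28.

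**Figure D3:**
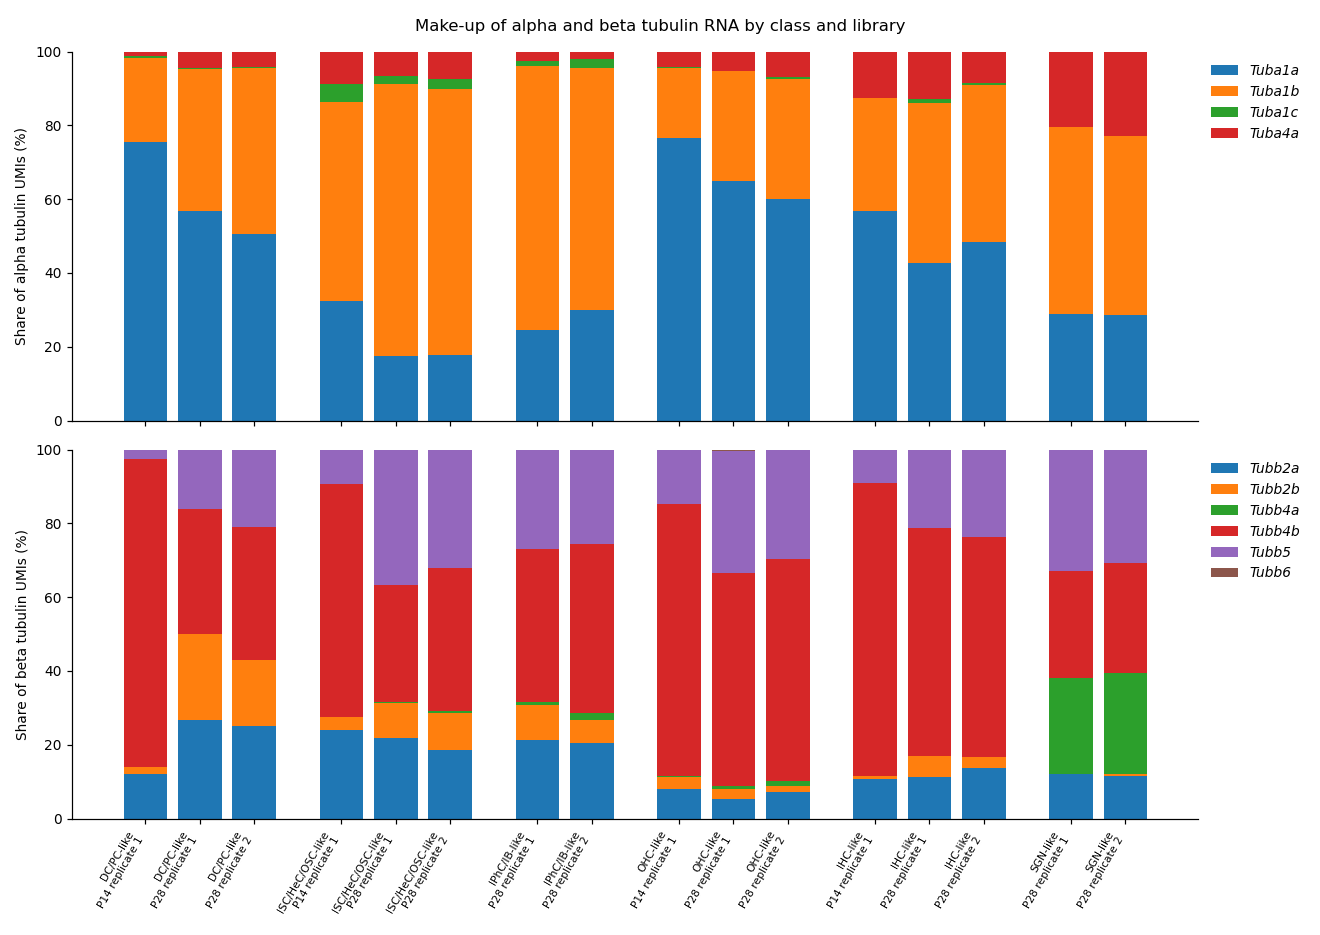
Stacked bars of the share of alpha (top) and beta (bottom) tubulin UMIs (y axis, percent) held by each isotype of the set. Tuba8 and Tubb3 are not counted, and the bars stand for 6 classes and the libraries in which they were present. The Tubb4b part of beta tubulin in DC/PC-like cells was 83.6% at P14 and 33.8% and 36.1% at P28, and Tubb4a shows only in SGN-like cells as a large part.

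Tubb4b was higher at P14 with intervals apart in 5 of 10 classes, the most of any member, in classes built from separate clusterings of the ages. In DC/PC-like cells it was at 1850 CPM at P14 (798 UMIs, interval 1724 to 1983) and at 153 and 175 CPM at P28 (48 and 26 UMIs), 11.3-fold higher at P14 than the P28 mean. In ISC/HeC/OSC-like cells it was at 733 CPM at P14 against 110 and 132 CPM, 6.05-fold higher. That class joined unlike clusters, with Tubb4b at 901, 849 and 257 CPM in those of P14 and at 41.8 to 176 CPM in those of P28. The part of the cluster mix in its difference was not tested. Smaller differences of the same direction, with intervals apart, were seen in IHC-like (380 against 181 and 161 CPM) and fibrocyte-like cells (289 against 145 and 142 CPM), and RBC-like cells had 503 against 36.6 and 24.2 CPM. The P14 fibrocyte-like class joined a cluster at 172 CPM and another at 378 CPM. The latter was led by Emilin2 and Rarres1, with Otor and Emcn. Emilin2, Otor and Emcn also led the tympanic border cell clusters of P28 (TBC-like), a class apart from fibrocyte-like cells there. The part of this mix in the fibrocyte-like difference was not tested. The RBC-like cells of P14 also differed in other genes, with 7884 CPM of proliferation genes against 107 and 84.8 at P28 and 37.4% haemoglobin UMIs against 70.9% and 63.6%. In the other 5 of 10 classes, OHC-like cells among them (87.4 against 105 and 103 CPM), the Tubb4b intervals overlapped. For scale, 11.2% of 2186 genes in DC/PC-like cells and 10.4% of 1734 genes in ISC/HeC/OSC-like cells were at least 2-fold higher at P14 than in both P28 libraries, and 6.63% and 4.96% at least 2-fold lower. These shares follow another rule than intervals apart, for which no share over all genes was counted in any class. Intervals are narrower, relative to the level, where UMIs are many, so counts of intervals apart favour abundant members and large classes.

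A UMI of Tubb4b was found in 81.1% of the P14 and in 37.5% and 46.3% of the P28 DC/PC-like barcodes (median depths 2917, 3510 and 3223). In macrophage-like barcodes, the class with the lowest P14 level of Tubb4b, the shares were 18.4%, 16.4% and 13.4% (median depths 3593, 2247 and 2136). Thinned to 1000 UMIs per barcode, with the shallower ones left out, the shares were 70.2%, 12.96% and 31.4% of 57, 54 and 35 DC/PC-like and 4.76%, 4.78% and 5.15% of 63, 230 and 330 macrophage-like barcodes. The P14 level was above both P28 libraries in each depth range, with 2007, 2181, 1691 and 1895 CPM in barcodes of over 1000, over 2000, over 5000 and over 10000 UMIs, each up to the next limit, and 822 CPM in those of up to 1000. In P28 replicate 1 it was at 143 to 285 CPM over these ranges, and in P28 replicate 2 at 125 to 378 CPM, with 1 barcode over 10000 UMIs in each. Markers of IPhC/IB cells also summed higher in the P14 DC/PC-like cells, to 3681 CPM against 1638 and 1586, and their part in the difference was not tested. In the IPhC/IB-like cells themselves, present at P28 only, Tubb4b was at 168 and 185 CPM.

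Tuba1a behaved otherwise with depth. Its class level in DC/PC-like cells was higher at P14, 1824 CPM against 1169 and 759, with intervals apart. But up to 10000 UMIs it rose with the depth of the barcode in every library, and the P14 excess was seen in 14 barcodes of over 10000 UMIs at 2607 CPM. In the 3 depth ranges from over 1000 to 10000 UMIs the P14 levels of 459, 853 and 1011 CPM lay below those of P28 replicate 1 (935, 1087 and 1268 CPM) and did not lie on 1 side of those of P28 replicate 2 (473, 706 and 865 CPM). Tubb2a, at 269 CPM at P14 against 121 and 121 CPM, had intervals apart too. Over the same 3 depth ranges it was at 115, 171 and 267 CPM at P14, at 216, 143 and 121 CPM in P28 replicate 1 and at 0, 182 and 75.3 CPM in P28 replicate 2, so of these only the range over 5000 UMIs had P14 above both. The ranges held 12, 17 and 14 barcodes at P14, 10, 11 and 32 in P28 replicate 1 and 7, 13 and 14 in P28 replicate 2. The whole class held 116, 38 and 18 Tubb2a UMIs, so its level in a range rests on few UMIs. No intervals were computed by range, and the age difference at equal depth was not tested. The intervals of Tuba1b, Tuba1c, Tuba4a, Tubb2b and Tubb5 overlapped between the ages in DC/PC-like cells, and Tubb4a and Tubb6 were at 0 in all 3 libraries.

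**Figure D4:**
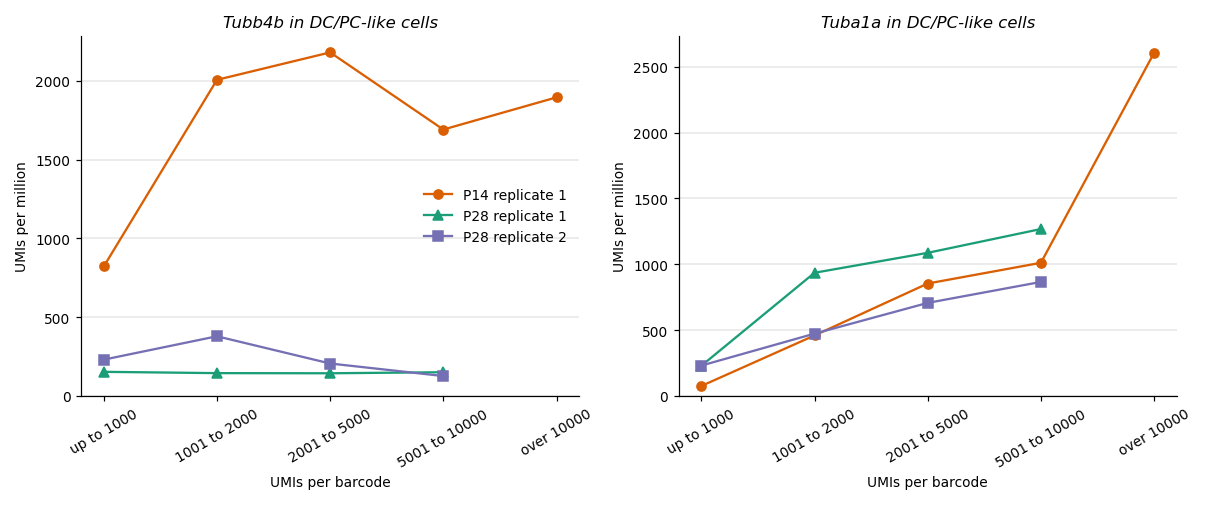
Level (y axis, CPM) of Tubb4b and Tuba1a in DC/PC-like barcodes grouped by their depth (x axis, UMIs per barcode), one line per library, with groups under 5 barcodes left out. Over 10000 UMIs only P14 has a point. In each group up to 10000 UMIs the P14 line of Tubb4b lies above both P28 lines. The lines of Tuba1a rise with depth, with P14 below P28 replicate 1 in each group up to 10000 UMIs.

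In ISC/HeC/OSC-like cells (481, 899 and 944 barcodes) several members were higher at P14. Tubb2a was at 277 CPM against 75.9 and 63.6, Tuba1a at 293 against 114 and 112, Tuba1c at 43.5 against 12.96 and 15.9, and Tuba4a at 79.8 against 43.7 and 47.4 CPM, all with intervals apart. Tuba1b, at 489, 482 and 455 CPM, and Tubb5, at 106, 127 and 110 CPM, had overlapping intervals there. By cluster Tubb2a was at 320, 290 and 158 CPM at P14, the last in the cluster led by Epyc and BC006965, and at 44.9 to 128 CPM at P28. Tuba1a was at 331, 402 and 165 CPM in the same P14 clusters, against 53.5 to 137. Tuba4a was at 86.1, 101 and 57.8 CPM, against 25.4 to 61.1. The part of the cluster mix in these differences was not tested. The class total was 2064 CPM at P14, against 999 and 972 CPM. OHC-like cells went the other way for 4 members with intervals apart. Tuba1b was at 54.4 CPM at P14 against 164 and 160 CPM, Tubb5 at 17.6 against 59.8 and 50.2, Tuba4a at 12.3 against 28.9 and 33.7, and Tuba1a at 221 against 356 and 298 CPM. Of 2162 genes in OHC-like cells 6.38% were at least 2-fold higher and 4.81% at least 2-fold lower at P14. The 2-fold rule is another than intervals apart, and Tuba1a did not meet it. The share of all genes with intervals apart was not counted. The median depth of OHC-like barcodes was 6510 UMIs at P14 and 5261 and 3754 at P28. Malat1, a nuclear noncoding RNA, took 5.73% of their UMIs at P14 against 1.13% and 1.35%, and ribosomal protein genes 6.20% against 8.21% and 8.35%. The P14 library held an OHC-like cluster of 35 nucleus-like barcodes with 15.7% Malat1. In the other P14 OHC-like clusters Tuba1b was at 57.3 and 49.7 CPM, against 118 to 182 CPM in those of P28, and the part of RNA quality in these differences was not tested. In IHC-like cells, apart from Tubb4b, only Tuba1b had intervals apart, at 174 against 304 and 281 CPM. The median depth of these barcodes was 1026 UMIs at P14, against 9310 and 8008 at P28. A shallow IHC-like cluster of 30 barcodes in P28 replicate 1 had a median of 1052 UMIs. It had Tuba1b at 183 CPM (7 UMIs) and Tubb4b at 287 CPM (11 UMIs). The part of depth in the IHC-like differences between the ages was not tested. Over the 10 classes present at both ages, Tubb2b, Tubb4a and Tubb6 had overlapping intervals in all 10.

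**Figure D5:**
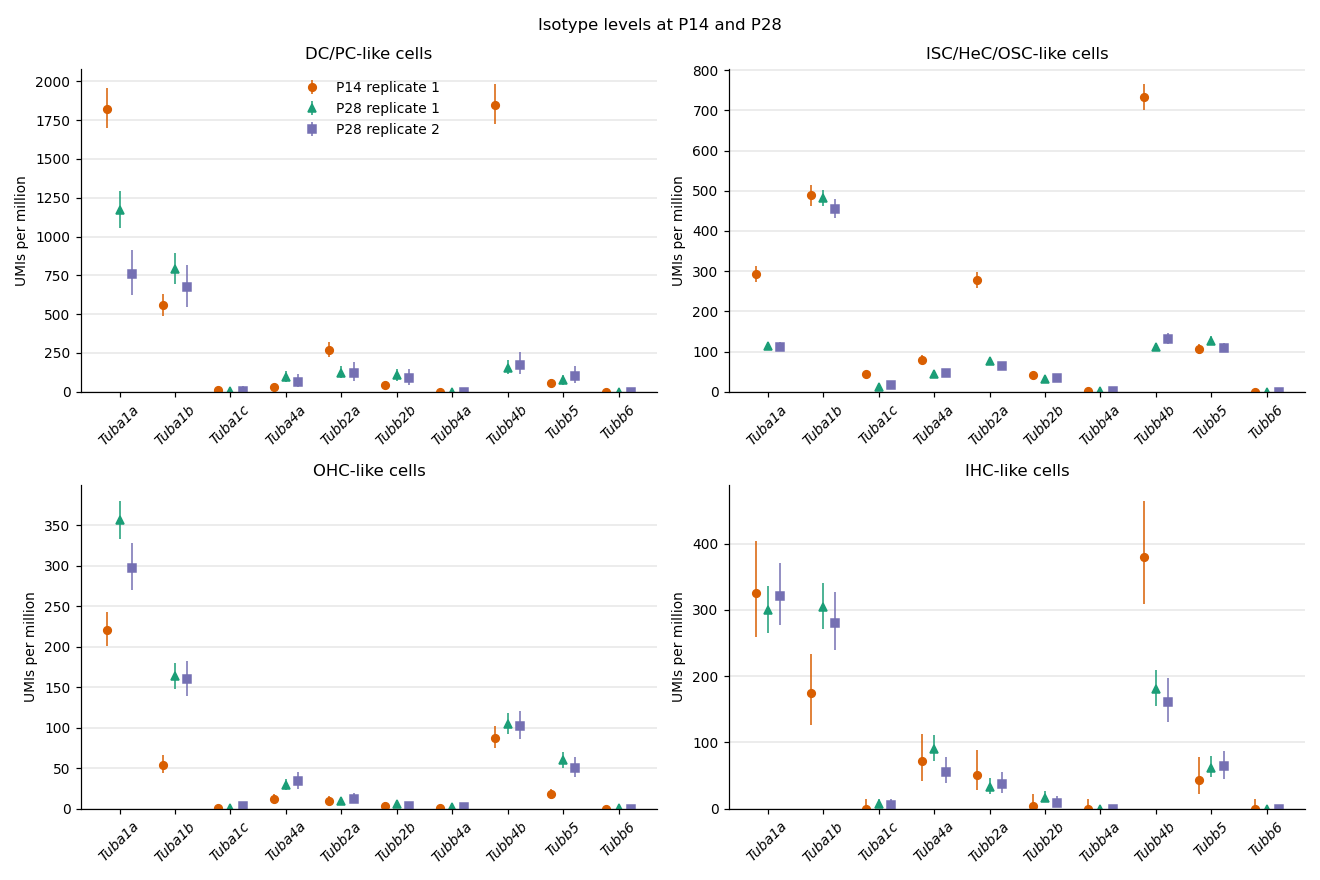
Level of each isotype (y axis, CPM, linear) in 4 classes (panels), by library, with exact 95% Poisson intervals. In DC/PC-like cells Tubb4b was at 1850 at P14 and at 153 and 175 at P28, and in OHC-like cells Tuba1b was at 54.4 at P14 and at 164 and 160 at P28.

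The genes that act on tubulin were described from 5 lists: other tubulins (10 genes), tubulin folding and dosage (22), tubulin modification (27), microtubule-binding proteins (45) and motors (27). In DC/PC-like against all other cells, 5 of 43 tested microtubule-binding genes were higher and 11 lower, and 3 of 27 motors were higher and 7 lower. Of all genes tested in that comparison 7.12% were higher and 12.3% lower. Tppp, which encodes a protein that promotes tubulin polymerization, was at 48.7, 86.2 and 94.1 against 14.3, 14.5 and 12.1 CPM (2.50 ± 0.35, adjusted p = 0.000200). Kif21a, a kinesin, was at 879, 674 and 712 against 147, 156 and 139 CPM (2.43 ± 0.20, adjusted p = 3.12e-06). Stmn1, whose product binds free tubulin dimers, was 1.75 ± 0.19 higher (adjusted p = 3.25e-05), the tubulin glycylase gene Ttll3 1.75 ± 0.39 (adjusted p = 0.00542) and the centrosomal gene Ninl 1.79 ± 0.46 (adjusted p = 0.0149). Map1a, a neuronal microtubule-associated protein gene, had 0 UMIs in DC/PC-like cells, at least 45.6-fold lower, and so did Clip2 (at least 3.77-fold) and Tubg2 (at least 2.81-fold). Most of the Map1a level of the other cells at P28 was that of SGN-like cells, at 2015 and 1946 CPM. All cells but SGN-like were at 7.84 and 9.62 CPM, beside a floor of 3.36 CPM for DC/PC-like cells. Stmn3 (-3.53 ± 0.40, adjusted p = 4.14e-05) and Tuba8, a further alpha tubulin (-3.29 ± 0.69, adjusted p = 0.00391), were lower. Of the 22 folding genes tested 1 was lower, and of 17 modification genes 3 were higher and 1 lower. The list medians were -0.20 for folding, 0.04 for modification, -0.15 for microtubule-binding proteins and -0.57 for motors, beside -0.16 for all genes tested. A list of 12 proliferation genes, most of them absent from postmitotic cells, had 6 of 8 tested lower.

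Against IPhC/IB-like cells the same lists gave 5 of 35 microtubule-binding genes higher and 2 lower, and 2 of 24 motors in each direction. Of all genes tested in that comparison 6.86% were higher and 6.43% lower. The medians of 21 folding and 11 modification genes were 0.14 and -0.09, beside 0.00 for all genes tested. Dync1i1, an intermediate chain of dynein, was at 44.7 and 53.7 against 2.12 and 6.32 CPM (3.65 ± 0.55, adjusted p = 0.000150). Tppp (1.71 ± 0.30, adjusted p = 0.000657), Dst (1.56 ± 0.19, adjusted p = 1.20e-05), Stmn1 (1.52 ± 0.19, adjusted p = 1.34e-05) and Ninl (2.43 ± 0.41, adjusted p = 0.000516) were higher. Kif5c was at 0 in DC/PC-like cells, at least 3.47-fold lower. Map2 (-2.55 ± 0.52, adjusted p = 0.00267), Camsap2 (-2.53 ± 0.43, adjusted p = 0.000485) and Kif5b (-0.94 ± 0.20, adjusted p = 0.00423) were lower. Against OHC-like cells Dync1i1 was 6.64 ± 0.54 higher in DC/PC-like cells (adjusted p = 4.47e-05) and Stmn1 5.12 ± 0.42 (adjusted p = 4.52e-05), followed by Dclk2 (3.47), Clip1 (3.32) and Kif1c (2.78). Clip2 was at least 8.07-fold lower, and Tuba8 (-5.60), Kif5c (-3.54), the polyglutamylase gene Ttll7 (-3.44) and Camsap3 (-2.32) were lower, all with adjusted p under the threshold.

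Tuba8 stood at 181, 184 and 172 CPM in OHC-like against 123, 99.1 and 89.1 CPM in IHC-like cells, values that did not overlap (0.96 ± 0.16, adjusted p = 0.00127), and at 2.32 to 6.72 CPM in DC/PC-like cells. OHC-like cells also had more Camsap3, which binds microtubule minus ends (2.29 ± 0.28, adjusted p = 0.000203), Dst (1.95 ± 0.15, adjusted p = 1.12e-05), Ninl (1.32 ± 0.25, adjusted p = 0.00265) and the tubulin tyrosine ligase gene Ttl (1.10 ± 0.30, adjusted p = 0.0193). Clip1 (-2.48), Kif1c (-1.69), Ttll12 (-1.44), Eml4 (-1.41) and Mapre2 (-1.33) were lower in OHC-like than in IHC-like cells, with adjusted p under the threshold. Of 34 microtubule-binding genes tested there, 5 were higher and 11 lower, and of 24 motors 1 was higher and 8 lower.

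In SGN-like cells 34 of 45 microtubule-binding genes and 23 of 27 motors were higher than in other P28 cells, and 6 and 2 were lower, with medians of 1.34 and 2.20 on the log2 scale beside -0.16 for all genes tested. Map1a (7.77 ± 0.16, adjusted p = 2.15e-08), Stmn2 (7.55 ± 0.13, adjusted p = 2.14e-08), the migrating neuron gene Dcx (7.46 ± 0.33, adjusted p = 5.19e-07) and Dync1i1 (7.30 ± 0.25, adjusted p = 1.56e-07) led them. Of 22 folding genes 14 were higher and 3 lower, and of 23 modification genes 12 were higher and 5 lower. These list counts stand beside 34.9% higher and 41.6% lower of all 15195 genes tested in this comparison. Of 11 proliferation genes 9 were lower and 1 higher. Map7 (-3.92), Ttll10 (-3.73), Ttll3 (-2.86), Agbl3 (-2.73) and Agbl2 (-2.41) were lower, the last with adjusted p = 0.0332.

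Genes whose P28 pattern was most like a member's were ranked by Pearson's r of log2(CPM + 10) over the 15 classes, which share libraries, among 5070 or 5071 genes of at least 100 CPM in a class. The highest were Limk1 for Tubb4a (r = 0.961), Nap1l1 for Tubb5 (0.928), Adcy7 for Tubb6 (0.916), Pnp for Tuba1c (0.899), Smarca4 for Tubb4b (0.898), Mapk8ip1 for Tuba1a (0.893), Sept7 for Tuba1b (0.875), Ctsb for Tubb2a (0.848), Nckap5 for Tubb2b (0.806) and Tfrc for Tuba4a (0.800). The second for Tubb2b was Tectb (0.772), a gene that led the DC/PC-like clusters. Within the set the highest r was 0.623, between Tuba1c and Tubb5, and the lowest was -0.502, between Tuba1a and Tuba1c.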

How the data were processed

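Single-cell RNA of mouse cochleae was counted by the authors with Cell Ranger (5.0.1 in the matrix headers, 6.0.1 in the submitters' processing notes) against mm10, and the deposited values are raw UMI counts per gene and barcode. Barcodes with 200 to 6000 genes and at most 15% mitochondrial UMIs were kept. P14 and the P28 libraries (anchor-integrated) were clustered separately with Seurat 5.3.0 on 2000 variable genes without tubulin and microtubule genes, 30 components and resolution 1. A cluster took a name from at least 3 fixed markers, and red blood cell, glial and inner phalangeal names also needed a key marker, a rule set after the first clusters were seen. Scrublet (scanpy 1.11.5) called 3, 0 and 1 barcodes, under 0.5%, so it did not work here and no doublets were removed.

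UMI counts were summed per class and library and tested with edgeR 4.0.16 (quasi-likelihood, TMM, default expression filter, Benjamini-Hochberg adjustment over all genes tested, threshold 0.05), with library as a block where all 3 libraries entered. The classes compared come from the same libraries, and deviations of same-library sums correlated at 0.12 to 0.517. DESeq2 1.42.0 was an alternative. Levels are UMIs per 1000000 UMIs of the class (CPM) with exact 95% Poisson intervals, and shares have exact binomial intervals, which cover counting error only. A class at 0 UMIs was set to a floor of 3 UMIs over the class, and the other class's level was weighted by the UMIs of the class at 0 in each library. The depth was 10125255 to 37530956 UMIs per library. The genes named are all 10 members and, for each comparison, up to 5 list genes in each direction with the largest called change and at least 30 UMIs. The members and lists were chosen with earlier results of these data known.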

Additional observations from a re-analysis of the deposited data

How the results depend on the processing

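The calls of Tuba1a and Tubb5 in DC/PC-like against all other cells, and of Tuba1a, Tuba1b and Tubb2a in DC/PC-like against OHC-like cells, were kept under all 15 alternatives. Tubb2b in DC/PC-like against OHC-like cells was tested in 12 of the 15 and kept its call in those. Of the members' log2 fold changes under the alternatives, 466 stayed the same, 49 kept direction and were no longer called, 20 moved and 13 changed sign. Where a test was run, same meant the same direction and side of the threshold. Values from a single library had no test. They were called same within the standard deviation of the values without each library, and moved beyond it. None of those 13 was called in either fit, and the cause of the changes below was not tested. For Tuba4a in DC/PC-like against all other cells the value became 0.15 with a mitochondrial limit of 30%, 0.57 with limits of 3000 genes and 15000 UMIs, 0.955 with barcodes thinned to 1000 UMIs, 0.0393 without the 5% highest doublet scores, 0.0161 without the replicate block, and it ran from -0.39 to 0.25 without each library. For Tuba1a in OHC-like against IHC-like cells it became -0.0166 with DESeq2 and -0.00658 with DESeq2 size factors, and it ran from -0.19 to 0.20 without each library. In DC/PC-like against IPhC/IB-like cells it became 0.00272 for Tubb4b with the replicate block, and for Tubb5 0.15 with the limit of 30%, 0.00583 at resolution 2 and 0.0664 thinned.

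Counts of called genes and members moved most with depth and filters. For DC/PC-like against all other cells, 2495 genes became 910 thinned, 631 with 10 UMIs required in every sum, 1341 without the replicate block and 1322 to 3186 without each library, and 8 members became 5 with the limit of 30%, 3 thinned, 3 with 10 UMIs, 3 without the block and 4 to 6 without each library. For OHC-like against IHC-like cells, 3224 genes became 945 with 3000 genes per barcode, 828 thinned, 2029 with DESeq2, 1686 with 10 UMIs, 1686 without the block and 1513 to 4908 without each library, and 4 members became 2 thinned, 2 without the block and 3 to 4 without each library. For DC/PC-like against OHC-like cells, 3375 genes became 1224 thinned and 1177 with 10 UMIs, with 2296 to 3934 without each library, and 7 members became 4 thinned and 3 with 10 UMIs. For SGN-like against all other cells, 11623 genes became 4949 with 3000 genes per barcode and 6675 thinned, and 10 members became 6 with 3000 genes and 6 with 10 UMIs. For DC/PC-like against IPhC/IB-like cells, 1104 genes became 250 thinned, 449 with DESeq2 and 581 with 10 UMIs. With the replicate block in these P28 comparisons, 11926 and 1298 genes were called and no member's call changed, and comparisons of 2 libraries allow no test with 1 left out. The log2 ratio of Tubb4b in DC/PC-like cells, P14 over P28, was 3.50, and became 3.09 thinned, 3.34 without mitochondrial, ribosomal protein and haemoglobin genes, 3.64 with the limit of 30% (an alternative chosen after seeing the data) and 3.40 to 3.59 without each P28 library. DC/PC-like cells had 41 to 74 barcodes per library, so members near 0 UMIs there were not resolved.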

Other observations

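Within the SGN-like class of P28, the 2 larger clusters led by Snap25 and Nefh had 2507 to 3015 CPM of the set. A cluster of 19 and 23 barcodes led by the noncoding genes Meg3, Snhg11 and Miat had 371 and 655 CPM. A cluster of 24 barcodes led by Rph3a, Prune2 and Gldn held 8 from P28 replicate 1 and 16 from P28 replicate 2, and the 16 barcodes had Tuba1a at 1291 CPM, Tuba4a at 1152 CPM and Tubb5 at 682 CPM.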
